A study of Mus musculus with 40 samples.

Results

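The mRNAs of the cytosolic ribosomal proteins were followed in mouse aorta over the first hours of angiotensin II (Ang-II). Members were chosen by name: genes called Rpl or Rps followed by a digit, together with Rpsa, Rplp0, Rplp1, and Rplp2, without pseudogene rows ending in -ps and without the kinases Rps6k. This rule took 87 of the 17402 rows of the table comparing Cn-Ctl with SM-Cn-/- mice (the genotype table) and 88 of the 15399 rows of the table comparing WT with CsA-pretreated mice (the CsA table). The extra row in the CsA table was Rpl3l. By name, 43 members belong to the large subunit, 31 to the small subunit, and 3 to the stalk, and these 77 are called the structural members here. The others were 9 near-copies in the genotype table and 10 in the CsA table, and Rps19bp1, a protein that binds Rps19 and is not a ribosomal protein. All members passed the filter on low values, which asked for a value of at least 1 in at least 2 libraries.

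Each ribosome holds about the same amount of every structural protein, and cells make these proteins together, from some of the most abundant mRNAs they have. Many of these mRNAs begin with a C followed by a run of pyrimidines, the terminal oligopyrimidine (TOP) tract, through which mTOR signalling sets how much of the mRNA is translated. Myc and growth signals raise the supply of ribosomal proteins and of the factors that assemble them. In arteries, Ang-II drives both contraction and growth of smooth muscle cells.

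Male mice were used in both experiments. As labelled, Cn-Ctl mice carried floxed CnB1 (Ppp3r1, the regulatory subunit of calcineurin, Cn) and no Cre, although the methods of the study also count mice with unfloxed CnB1 and Myh11-CreERT2 as Cn-Ctl, and SM-Cn-/- mice carried floxed CnB1 with the tamoxifen-inducible, smooth muscle-specific Cre Myh11-CreERT2. Both received tamoxifen, 1 mg daily for 5 days, at 10 to 12 weeks of age, and 6 weeks later were left untreated or received Ang-II by minipump (1 µg/kg/min) for 2, 6, or 24 h. WT mice were C57BL/6J without pretreatment, and CsA mice were C57BL/6J given cyclosporin A (CsA), an inhibitor of Cn phosphatase activity, by minipump (5 mg/kg/day) for 5 days, starting like the WT mice at 10 to 12 weeks of age. WT and CsA mice were then left untreated or received Ang-II for 2 or 24 h, and WT mice had no pump during the CsA period. Treated Cn-Ctl, WT, and CsA mice entered only if systolic pressure passed 130 mmHg, a criterion not applied to treated SM-Cn-/- mice. Mice were removed where CnB1 deletion was not found in SM-Cn-/- aorta by PCR, or where CsA had not blocked NFAT activation in the thymus. Each library pooled 3 aortas freed of adventitia, and each group had 3 libraries, except untreated Cn-Ctl and Cn-Ctl at 24 h, which had 2 (replicates 2 and 3). An untreated Cn-Ctl replicate had been discarded for its distance from the others in a principal component analysis, so the spread of this baseline was selected. Values are reads scaled to a common library size (scaled reads). Assigned reads per library were 2.73 to 10.25 M in the genotype table and 18.98 to 38.9 M in the CsA table. Nothing says whether replicate pools came from separate cohorts, so p-values measure the spread between pools. Smooth muscle markers were abundant in every library. Ppp3r1, the floxed gene, lay between 45.7 and 134 in the 10 Cn-Ctl libraries (median 85.6) and between 41.8 and 118 in the 12 libraries labelled SM-Cn-/- (median 76.3), so counts over the whole gene did not separate the genotypes. Reads outside the floxed exons would still be counted, so these values do not test the deletion, which was checked by PCR, and SM-Cn-/- is used here as the label.

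The annotated start sites of members that the results turn on are given as 30 bases each, with the start at base 16 and the TOP tract in capitals (RefSeq, GRCm38.p6). Rpl35, Rps18, and Rps6 start exactly on a tract, and Rpl18 starts 1 base before a tract. The printed windows of Rplp0 and Rpsa hold no tract of C plus at least 4 pyrimidines. The start used for Rpsa lies downstream of the gene start given with its values below. An annotated start need not be the one in use, so a window without a tract does not show that the mRNA lacks one.
Rpl35 (chr2:39005117-39005146, minus strand): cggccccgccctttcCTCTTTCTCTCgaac
Rps18 (chr17:33955651-33955680, minus strand): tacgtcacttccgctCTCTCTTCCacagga
Rps6 (chr4:86857353-86857382, minus strand): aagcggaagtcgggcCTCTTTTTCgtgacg
Rpl18 (chr7:45718056-45718085, plus strand): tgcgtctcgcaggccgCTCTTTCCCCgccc
Rplp0 (chr5:115559452-115559481, plus strand): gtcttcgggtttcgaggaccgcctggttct
Rpsa (chr9:120127751-120127780, plus strand): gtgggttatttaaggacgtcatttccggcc

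Among the 65 members found in the promoter table by symbol, 14 (21.5%) had an annotated start on such a tract, against 3.01% of all 27025 symbols. With any start within 10 bases of the annotated one, the shares were 58.5% and 34.4%. In WT after 24 h of Ang-II, the median log2 change was 0.32 for the 14 members that start on a tract, 0.39 for 24 with a tract within 10 bases only, and 0.30 for 27 with none. In Cn-Ctl these medians were 0.16, 0.40, and 0.13, in SM-Cn-/- 0.48, 0.37, and 0.28, and in CsA 0.18, 0.20, and 0.12. In every arm the median was lowest for members with no tract within 10 bases. Members that start on a tract had the highest median in SM-Cn-/- only. These differences were not tested. A tract in these letters is a description of the sequence, and translation was not measured. The shares depend on the annotated starts, which were not checked against mRNA ends. Structural members were also short, with a median transcript of 774 bases in 5 exons, against 2837 bases and 9 exons over all protein-coding rows of the genotype table.

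Levels per kb of transcript differed widely among members. In the genotype table the highest mean levels per kb were those of Rps27 (1055), Rpl10 (925), Rpl26 (823), Rps3a1 (802), and Rps4x (786). In the CsA table they were those of Rplp1 (731), a stalk protein, Rpl10 (650), Rps15 (595), Rps14 (565), and Rpl41 (563). Only Rpl10, which completes the large subunit late in its assembly, was among the top 5 of both tables. The lowest levels belonged to near-copies, to Rps19bp1 (12.8 per kb in the genotype table and 11.4 in the CsA table), and to Rpl12 and Rps15a. Rps15a was set low by the annotation, since its longest transcript has 5130 bases. The levels of neighbours in these orders were not compared by a test, and the tables were scaled separately.

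**Figure D1:**
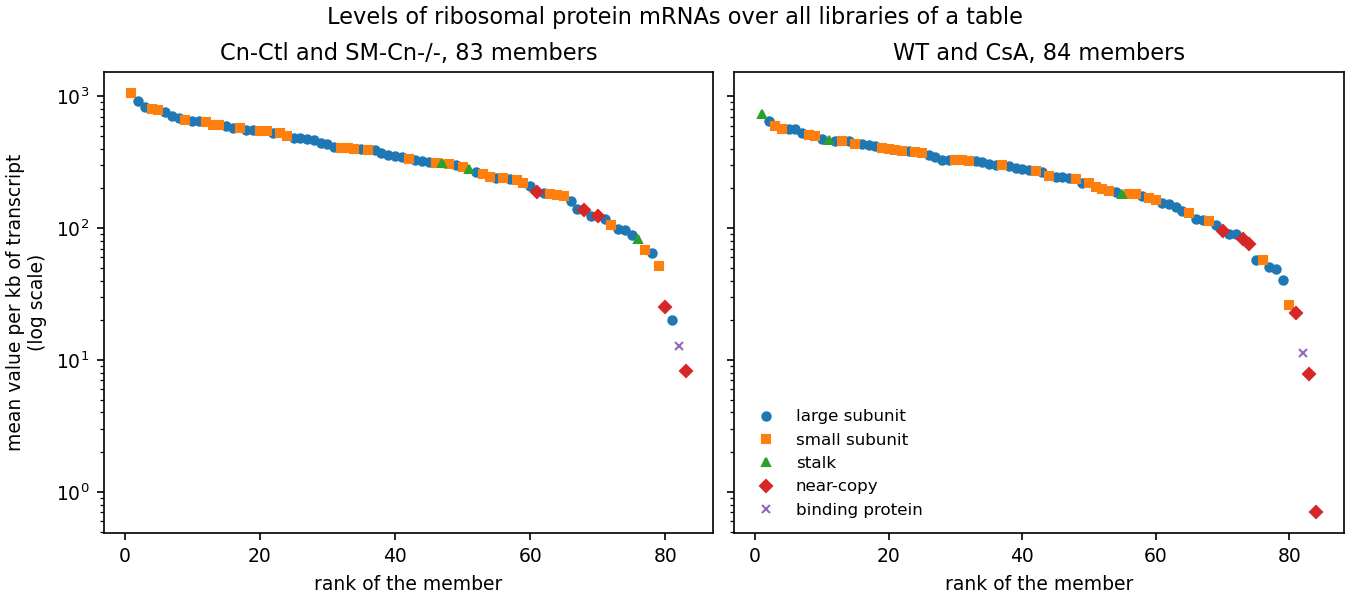
Mean value per kb of transcript (log scale) of the members with an annotated transcript length, ranked within the genotype table (Cn-Ctl and SM-Cn-/-, left) and the CsA table (WT and CsA, right), with a symbol for each class. Rps27 leads the left panel at 1055 per kb and Rplp1 the right panel at 731, and near-copies fill most of the lowest ranks.

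Members rose and fell together from library to library. After group means were removed, the median pairwise correlation among the 77 structural members was 0.64 over the 22 libraries of the genotype table and 0.74 over the 18 of the CsA table, and 1 component held 62.8% and 72.4% of their variance. The median correlation with the members' shared profile was 0.85 and 0.88 for the structural members, which make up that profile, and -0.05 and 0.01 for other rows. Of these other rows, 13.2% and 5.51% correlated with the profile above 0.5. These are descriptions, since the members share libraries and scaling. Rpl5, which also binds Mdm2 as part of the 5S particle, ran against the others in the genotype table (r = -0.53), while in the CsA table the lowest member was Rpl29 (r = 0.49). Several libraries therefore stood apart as a block: SM-Cn-/- at 2 h replicate 3 (median of the structural members 0.24 above its untreated mean on the log2 scale, against -0.25 and -0.33 in replicates 1 and 2), WT at 24 h replicate 2 (0.51 against 0.24 and 0.22), Cn-Ctl at 6 h replicate 3 (0.28 against -0.10 and -0.16), and untreated CsA replicate 1 (-0.28, with 0 of 77 members above the group mean).

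**Figure D2:**
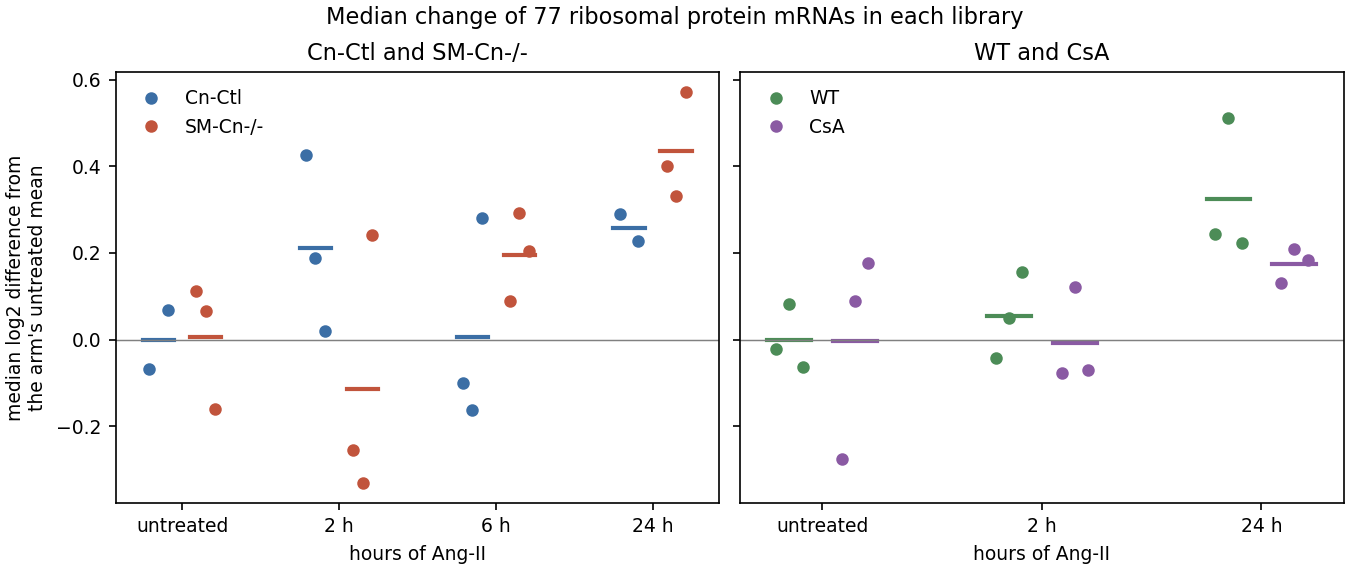
Median log2 difference of the 77 structural members from the untreated mean of the same arm, for each library (points) with group means (lines), by hours of Ang-II, in the genotype table (left) and the CsA table (right). All libraries at 24 h lie above 0 in all 4 arms, and SM-Cn-/- replicate 3 at 2 h lies at 0.24 while the other 2 lie below 0.

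As a share of all values in a library, members took 1.86% in untreated WT aorta, 1.61% at 2 h, and 2.22% at 24 h (group means). In CsA aorta the shares were 1.86%, 1.61%, and 1.92%. In Cn-Ctl they were 2.41%, 2.32%, 2.14%, and 2.60% at 0, 2, 6, and 24 h, and in SM-Cn-/- 2.28%, 2.13%, 2.48%, and 2.83%. In every arm the mean share at 24 h was above that in untreated aorta, but the untreated CsA libraries held 1.55%, 2.02%, and 2.02%, and without untreated CsA replicate 1 (1.55%) their mean was 2.02%, above the 1.92% at 24 h. Shares compare mRNA within a library, so fewer cells of a type and less mRNA per cell cannot be told apart.

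The clearest response was that of WT aorta after 24 h of Ang-II. Rpsa, the laminin receptor protein of the small subunit, had values of 473, 512, and 508 in the untreated libraries and 783, 1020, and 841 at 24 h. Rplp0, the base of the stalk that recruits elongation factors, had 514, 552, and 507 untreated and 814, 988, and 807 at 24 h. The treated libraries lay above all untreated ones for both, as they did in 25.4% of all rows. Rpsa (ENSMUSG00000032518, chr9:120127689-120132369 in GRCm38) rose by a log2 change of 0.82 ± 0.11 (SE, limma, adjusted p = 4.57e-05) and Rplp0 (ENSMUSG00000067274, chr5:115559467-115563727) by 0.72 ± 0.11 (adjusted p = 9.76e-05).

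In all, 43 of the 88 members rose at 24 h in WT and 0 fell (limma, adjusted p under 0.05), against 18.1% of all rows tested that rose and 16.9% that fell (35.0% in either direction). The median log2 change of the members was 0.34 (SD 0.17 over the 3 treated libraries), against 0.00 over all rows. By class, 19 of 43 large subunit members rose, 15 of 31 small subunit members, 3 of 3 stalk proteins, 5 of 10 near-copies, and Rps19bp1. Rps2, at the mRNA entry side of the small subunit, had 99.5, 108, and 112 untreated and 170, 223, and 180 at 24 h (log2 change 0.83 ± 0.13, adjusted p = 0.000111). Rps18 had 185, 212, and 166 and then 287, 366, and 284 (0.73 ± 0.12, adjusted p = 0.000282). Rpl12, which sits at the foot of the stalk, had 50.2, 44.8, and 49.0 untreated and 86.5, 150, and 73.6 at 24 h (1.03 ± 0.28, adjusted p = 0.0104, and 0.07 without the 24 h replicate 2). Rps2, Rps18, and Rpl12 were named because they were called without overlap between groups, so the lack of overlap adds no support. The stalk proteins Rplp1 (0.62 ± 0.15, adjusted p = 0.00387) and Rplp2 (0.47 ± 0.16, adjusted p = 0.0271) rose as well. Rpl5 was among the 9 members with values below the untreated mean (-0.25 ± 0.14, adjusted p = 0.188).

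The count depended on single libraries and on the scaling. Without WT at 24 h replicate 2, 21 members rose, without untreated WT replicate 3 25 did, and with library totals taken without members 25 did, all of them upward, while edgeR on the recovered reads called 38 and DESeq2 49. That scaling puts plain totals in place of the deposited library sizes, and the median of all rows moved to -0.09. The median of the members stayed 0.33 above that of all rows, as with the deposited scaling. Macrophage markers moved with the members: all 8 rose, and their summed value was 109 to 158 in untreated WT and 288 to 427 at 24 h, whereas of 8 smooth muscle markers 1 rose and 3 fell. Summed endothelial markers were 404 to 685 untreated and 723 to 859 at 24 h, adipose markers 716 to 1339 and then 1635 to 1939, and lymphocyte markers 3.60 to 6.90 and then 8.98 to 13.7. Only 2 of the 9 listed lymphocyte markers were measured in the CsA table. The part of any of them in the change of the members was not tested.

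**Figure D3:**
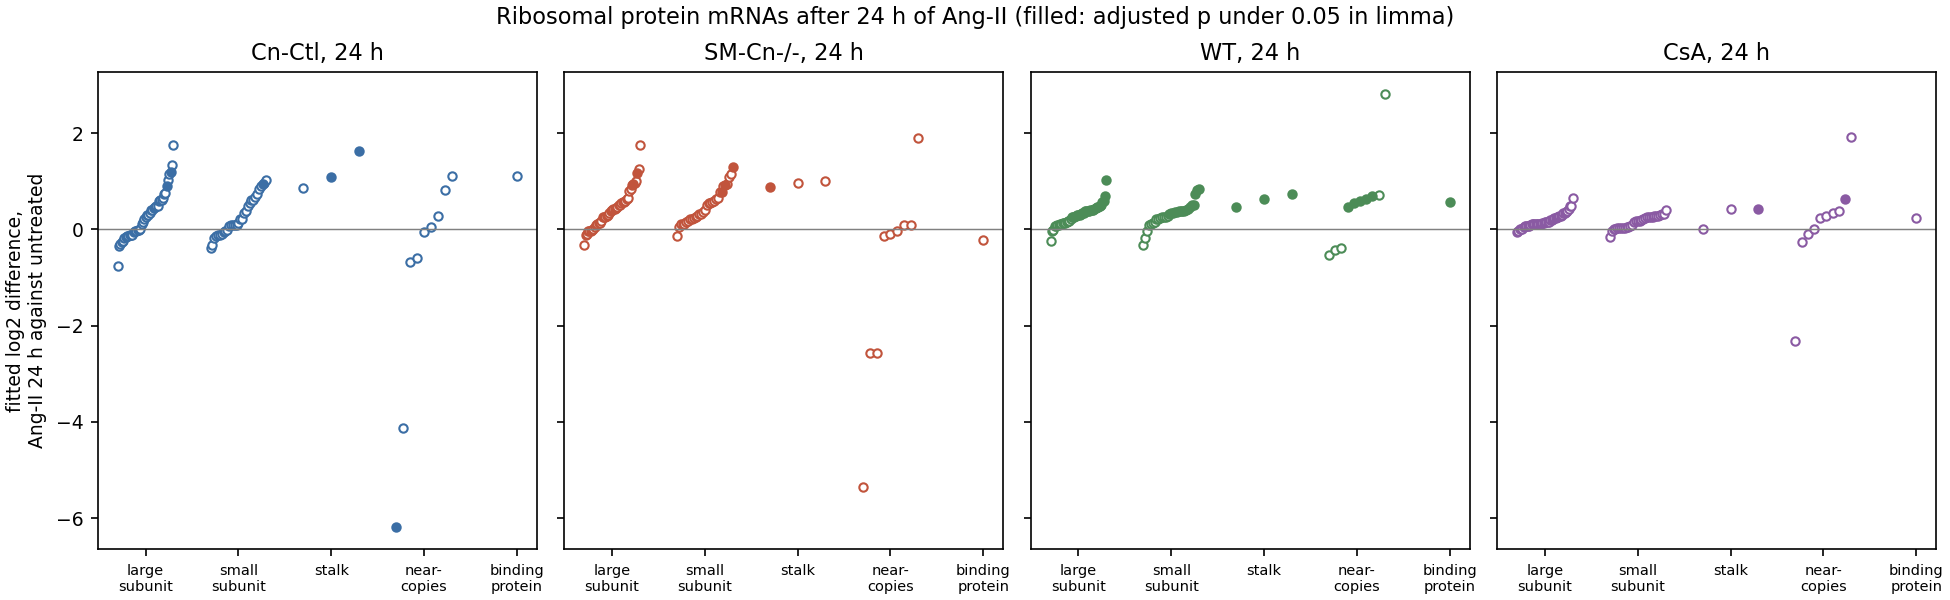
Fitted log2 difference of each member after 24 h of Ang-II against untreated aorta of the same arm, by class, with filled points for members past an adjusted p of 0.05 in limma. The WT panel has 43 filled points, the CsA panel 2, and each genotype panel 6, and the widest scatter is among near-copies.

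After 2 h in WT, no member passed the test. limma, edgeR, and unadjusted p under 0.05 in limma each gave a count of 0, and DESeq2 called 1, against 21.4% of all rows called. The median log2 change was 0.06 (SD 0.10 over libraries). It was -0.23 with library totals taken without members, a scaling under which the median of all rows also moved, to -0.25, and -0.18 after quantile normalization, so no direction is given for the members at 2 h.

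In CsA-pretreated aorta after 24 h, 2 of 88 members rose and 0 fell, against 5.2% of all rows that rose (8.97% called in either direction). Rpl36al, a near-copy of Rpl36a that is itself a ribosomal protein, had 32.2, 49.8, and 45.6 untreated and 59.8, 70.8, and 65.1 at 24 h (log2 change 0.63 ± 0.14, adjusted p = 0.0119). Rplp0 had 479, 531, and 615 untreated and 723, 728, and 720 at 24 h (0.43 ± 0.11, adjusted p = 0.0233). Neither gene overlapped between the groups, which the rule for named members required. Of all rows, 15.2% had every treated library above every untreated one. Other members had positive values without passing, as Rps18 (0.40 ± 0.12, adjusted p = 0.0509) and Rpsa (0.33 ± 0.11, adjusted p = 0.076), and 81 of the 88 had a value above 0, with a median of 0.16 against -0.02 over all rows. Without untreated CsA replicate 1, 53 of the 88 were above 0 and the median was 0.024, and with library totals taken without members it was 0.047, where all rows moved to -0.13. The count was 12 (11 upward) without untreated CsA replicate 3, 0 without untreated CsA replicate 1 or 24 h replicate 2, and 1 without 24 h replicate 1, and DESeq2 called 11. Rplp0 also lost its call without untreated replicate 2 (adjusted p = 0.065). Smooth muscle marker sums were 17025 to 19192 untreated and 19746 to 28614 at 24 h, blood sums 132 to 138 and then 388 to 2489, and striated muscle sums 136 to 1334 and then 76.1 to 84.7, whose part was not tested.

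After 2 h with CsA, 2 members fell, Rps29 and Rpl3l, against 7.84% of all rows that fell (20.1% in either direction). Rps29, a small zinc-binding protein of the small subunit, had 77.4, 102, and 123 untreated and 61.5, 83.6, and 63.2 at 2 h, with overlap between the groups. It lies outside the rule for named members and was chosen after its values were seen. Rpl3l, the muscle form of Rpl3, was at 4.17, 6.58, and 0.327 untreated and at 0 reads in all 3 libraries at 2 h, which is at least 27.2-fold lower by a floor of 3 reads per library. Summed striated muscle markers were 136 to 1334 in the untreated CsA libraries (median 824) and 40.4 to 87.5 at 2 h, and their part in the fall of Rpl3l was not tested. The median of the members was 0.00, and 17 members passed after quantile normalization (16 of them lower) and 13 with totals taken without members (all lower). The count was 5 without untreated CsA replicate 1, 0 without untreated replicate 2, and 1 without untreated replicate 3 or 2 h replicate 1 or 2.

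CsA and WT aorta were then compared directly. Untreated, 0 of 88 members differed in limma and edgeR, 4 had an unadjusted p under 0.05, and DESeq2 called 1, against 25.2% of all rows called. Without untreated CsA replicate 1, 4 differed, and without untreated CsA replicate 3 or untreated WT replicate 1, 1 did. At 2 h, limma, edgeR, and DESeq2 called 0 members (4 at an unadjusted p under 0.05), against 1.33% of all rows. At 24 h, limma and edgeR called 0, 20 had an unadjusted p under 0.05, and DESeq2 called 8, all lower with CsA, against 5.57% of all rows called by limma. In 34 members every CsA library at 24 h lay below every WT library, which 13.7% of all rows did, and in 0 members every one lay above. Rplp0 at 24 h had 723, 728, and 720 with CsA and 814, 988, and 807 in WT (log2 difference -0.26 ± 0.11, adjusted p = 0.157). The median difference of the members was -0.14, and -0.06 without WT at 24 h replicate 2, while 5 members were lower without WT at 24 h replicate 3. The difference between the 24 h responses gave 0 calls among members in limma and edgeR (11 at an unadjusted p under 0.05, 3 by DESeq2) against 9.42% of all rows, and Rpsa with all libraries was at -0.49 ± 0.16 (adjusted p = 0.0597). Without untreated CsA replicate 1, 5 members were called. The difference between the 2 h responses gave 0 by all 3 tools (2 at an unadjusted p under 0.05) against 0.146%. Untreated CsA libraries also had lower smooth muscle marker sums (17025 to 19192, against 26466 to 36261 in WT) and higher adipose sums (4040 to 6664, against 716 to 1339). Endothelial (1071 to 1246, against 404 to 685), macrophage (296 to 360, against 109 to 158), and lymphocyte sums (8.68 to 14.9, against 3.60 to 6.90) were higher as well. The part of any of these was not tested.

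In Cn-Ctl aorta after 24 h, 5 of 87 members rose and 1 fell, against 3.22% of all rows that rose and 2.4% that fell (5.62% in either direction). Rplp1 had 80.3 and 88.2 untreated and 261 and 258 at 24 h (log2 change 1.62 ± 0.39, adjusted p = 0.0151). Rplp0 had 285 and 279 untreated and 604 and 601 at 24 h (1.09 ± 0.24, adjusted p = 0.0072). Rpl18 had 92.1 and 88.1 and then 224 and 192 (1.199 ± 0.29, adjusted p = 0.0174). For all 3, the treated libraries were above the untreated ones by more than replicates differed. For Rpl18 the rule for named members required a lack of overlap, so its separation adds no support. Of all rows, 25.3% had every treated library above every untreated one. Rpsa (0.94 ± 0.24, adjusted p = 0.0222) and Rpl35, a large subunit protein near the exit of the nascent chain (85.4 and 88.1 untreated, 166 and 158 at 24 h), also rose. Rpl6l fell from 35.0 and 53.0 to 0 reads in both libraries, at least 73.8-fold by a floor of 3 reads per library. Of the 77 structural members 50 were above 0, with a median of 0.22. The number that rose was 0 without either untreated library, 1 without the 24 h replicate 3, and 4 without the 24 h replicate 2. Rpl18 lost its call without any 1 of the 4 libraries, and Rplp0, Rplp1, and Rpsa without any but the 24 h replicate 2. A left-out library leaves a group of 1, which is then assumed to vary like the others. Macrophage marker sums were 94.5 to 126 untreated and 247 to 333 at 24 h. Endothelial sums were 356 to 465 and then 523 to 541, and striated muscle sums 22.1 to 46.5 and then 80.5 to 92.8. Smooth muscle sums were 29344 to 30227 and then 28149 to 50656. The 2 libraries at 24 h had 7.11 and 3.97 M assigned reads. The part of any of these was not tested.

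At 2 h in Cn-Ctl, limma, edgeR, and DESeq2 called 0 of 87 members (2 at an unadjusted p under 0.05), against 6.23% of all rows (4.72% higher). The median was 0.21, but -0.13 after quantile normalization and -0.05 with totals taken without members, where all rows moved to -0.23. At 6 h, Rpl22, an RNA-binding protein of the large subunit, fell, and it was the only member called in limma (3.96% of all rows in either direction, 2.72% higher and 1.25% lower). It had 245 and 251 untreated and 148, 163, and 193 at 6 h (log2 change -0.57 ± 0.15, adjusted p = 0.0362). The groups did not overlap, which the rule for named members required. Of all rows, 16.6% had every treated library below every untreated one. edgeR called 0 members at 6 h, and so did limma without either untreated library or without 6 h replicate 1 or 2.

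In SM-Cn-/- aorta after 24 h, 6 of 87 members rose and 0 fell, against 0.638% of all rows that rose (0.79% in either direction). Rps9, which helps keep the accuracy of decoding, had 235, 233, and 196 untreated and 414, 404, and 438 at 24 h (log2 change 0.92 ± 0.20, adjusted p = 0.0289). Rps29 had 50.2, 72.3, and 54.2 and then 141, 152, and 140 (1.30 ± 0.29, adjusted p = 0.0345). Rpl18 had 91.0, 96.3, and 88.8 and then 193, 192, and 239 (1.17 ± 0.24, adjusted p = 0.0213). Groups did not overlap in any of these, which the rule for named members required. Rpl35 (0.94 ± 0.19, adjusted p = 0.0208) and Rplp0 (0.88 ± 0.19, adjusted p = 0.0299) rose too. The median of the members was 0.37 (SD 0.10 over libraries), with 72 of 87 above 0. In 49 members every treated library lay above every untreated one and in 2 every one lay below, against 11.6% and 8.01% of all rows. The number that rose was 0 without untreated replicate 3, 24 h replicate 2, or 24 h replicate 3, 1 without untreated replicate 2 or 24 h replicate 1, and 5 without untreated replicate 1, and 1 member fell without 24 h replicate 2, while DESeq2 called 12. Rpl18 and Rps29 lost their calls without any 1 of the 6 libraries, and Rplp0 and Rps9 each lost theirs in 5 of the 6 fits. Endothelial marker sums were 601 to 820 untreated and 1198 to 1237 at 24 h. Smooth muscle sums were 21611 to 25221 and then 25257 to 28266, and blood sums 77.4 to 455 and then 505 to 2263. Macrophage sums overlapped, at 168 to 291 and then 188 to 316. The part of any of these was not tested.

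At 6 h in SM-Cn-/-, 2 members rose, against 1.48% of all rows that rose (2.33% in either direction, 0.846% lower). Rpl27 had 28.4, 37.4, and 31.3 untreated and 57.5, 91.1, and 117 at 6 h (1.39 ± 0.28, adjusted p = 0.00999), and Rps26, which contacts the mRNA at the exit channel, had 75.0, 83.8, and 81.2 and then 132, 142, and 159 (0.84 ± 0.23, adjusted p = 0.04997). Neither gene overlapped between groups, which the rule for named members required. In 28 members every library at 6 h lay above every untreated one and in 2 below, against 10.1% and 8.77% of all rows. The count was 0 without 6 h replicate 2 or 3 and 1 without untreated replicate 3, and Rps26 lost its call without any 1 of the 6. At 2 h, limma, edgeR, DESeq2, and an unadjusted p under 0.05 each gave 0 of 87, against 1.12% of all rows called (0.97% higher).

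Rplp0 rose in all 4 arms at 24 h, each against its own untreated libraries. Its call held without any 1 library in WT. It was lost in 5 of 6 such fits in SM-Cn-/- and in 4 of 6 in CsA. In Cn-Ctl its log2 change ran from 1.08 to 1.11 with 1 library left out. Rpl18 rose in both genotypes, and in SM-Cn-/- it lost its call without any 1 of the 6 libraries. In Cn-Ctl the log2 change of Rpl18 ran from 1.09 to 1.31 with 1 library left out. The Cn-Ctl ranges do not mean that the calls held there, and their loss in such fits is described above. Rpl5 passed the test in no arm.

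**Figure D4:**
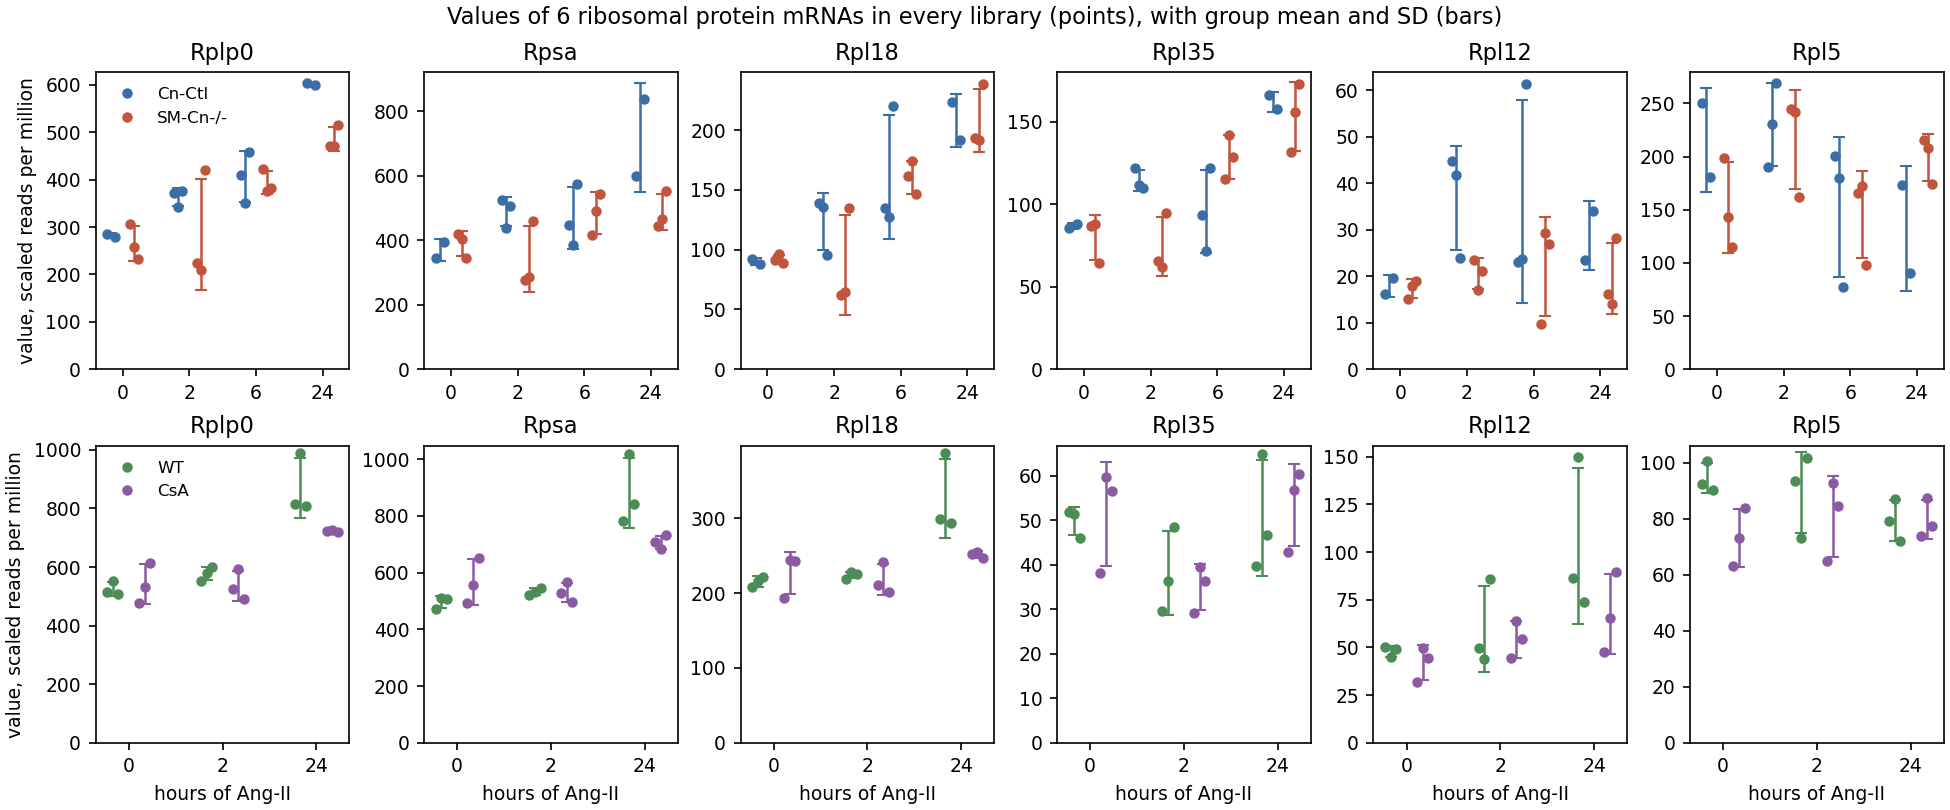
Values in reads scaled to a common library size (linear axis from 0) of Rplp0, Rpsa, Rpl18, Rpl35, Rpl12, and Rpl5 in every library (points), with group mean and SD (bars), by hours of Ang-II, in the genotype table (top) and the CsA table (bottom). Rplp0 at 24 h lies above untreated aorta in every arm, at 601 and 604 in Cn-Ctl and 807 to 988 in WT.

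The genotypes were also compared at each time. Untreated, limma, edgeR, DESeq2, and an unadjusted p under 0.05 gave 0 of 87 members, against 0.0139% of all rows called (0.00693% in each direction). At 2 h, 2 members were lower in SM-Cn-/-, Rpl38 and Rps28, against 2.97% of all rows that were lower (3.7% in either direction), and 85 of 87 had a value below 0, with a median of -0.43. This median was -0.18 after quantile normalization and -0.19 with totals taken without members, where all rows moved to 0.21. In 0 members every SM-Cn-/- library lay above every Cn-Ctl one, against 10.2% of all rows. Rpl38, a small protein of the large subunit, had 225, 160, and 130 in Cn-Ctl and 75.9, 82.9, and 129 in SM-Cn-/- (-0.84 ± 0.24, adjusted p = 0.0495), with 129 just under the lowest Cn-Ctl value. Rps28, at the exit side of the small subunit, had 178, 121, and 88.0 against 54.8, 55.2, and 101, so the groups overlapped, and it is named here after its values were seen. SM-Cn-/- replicate 3 was high in both. Without it 27 members were lower, without Cn-Ctl replicate 3 11 were, and without any other of the 6 libraries 0 were. edgeR called 0 and DESeq2 9. The difference between the 2 h responses gave 0 calls among members by all 3 tools (4 at an unadjusted p under 0.05) against 0.513% of all rows, and 1 call without SM-Cn-/- at 2 h replicate 3.

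At 6 h the genotypes gave 0 members by all 3 tools (3 at an unadjusted p under 0.05), against 1.98% of all rows (0.534% higher). At 24 h limma and edgeR gave 0 (8 at an unadjusted p under 0.05) and DESeq2 1, against 4.94% of all rows. The median at 24 h was 0.05, and 2 members differed without Cn-Ctl at 24 h replicate 2. The difference between the 24 h responses, a test chosen after seeing the data as for CsA and WT, gave 0 in limma and edgeR (7 at an unadjusted p under 0.05) and 1 in DESeq2, against 0.513% of all rows. Rpsa, for example, had 598 and 838 in Cn-Ctl and 445, 465, and 552 in SM-Cn-/- at 24 h (-0.54 ± 0.22, adjusted p = 0.186).

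In the genotype table, changes within the family ranked with the base composition of the transcript. Across the 77 structural members in Cn-Ctl, Spearman's rho between GC percent and log2 change was 0.67 at 6 h and 0.71 at 24 h, against 0.18 and 0.27 over all rows. For these correlations, all rows means the fitted protein-coding rows with a known GC percent. Without Cn-Ctl at 6 h replicate 3 it was 0.54 at 6 h, against 0.046 over all rows. In SM-Cn-/- it was 0.72 at 6 h and 0.54 at 24 h, against 0.21 and 0.33 over all rows. At 24 h it was 0.45 in WT and 0.22 in CsA, against 0.04 and -0.0078 over all rows. For SM-Cn-/- against Cn-Ctl at 2 h it was -0.48, against -0.07 over all rows. Without SM-Cn-/- at 2 h replicate 3 these were -0.67 and -0.24. Genes are not independent replicates, and these values describe the members of 1 comparison each. In Cn-Ctl at 6 h, 27 of the 38 members above the median GC of 52.0% were above 0 (median 0.26), and 8 of the 39 others (median -0.21). At 24 h these counts were 33 of 38 (median 0.59) and 17 of 39 (median -0.02). Rpl5 has a GC of 43.4%, Rpl18 57.6%, and Rplp0 58.1%. In WT at 24 h both sets were mostly above 0, with 35 of 38 (median 0.39) and 36 of 39 (median 0.26). After a correction for GC in each library, chosen after seeing the data, the counts for 24 h kept within 1.5 times the ones above in all arms except CsA, where 6 members passed.

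Near-copies were the most variable members and also the least certain. Rps12l1, a processed pseudogene, shares 100% of its 50-base windows with Rps12, Rps27rt 91.1% with Rps27, Rpl6l 61.8% with Rpl6, and Rpl37rt 35.0% with Rpl37, so reads of these could be split between copy and parent. Rps12l1 took between 0.01% and 46.9% of the sum of copy and parent in the genotype table, and had 0 reads in 7 of 22 libraries there and in 11 of 18 in the CsA table. Rpl6l had 0 reads in 4 of 22 and 12 of 18. The fall of Rpl6l above is therefore uncertain. In contrast, Rpl22l1, Rps27l, Rpl7l1, and Rpl36al share no 50-base window with their parents, and neither do Rps4l and Rpl3l. The first 4 all rose in WT at 24 h, by log2 changes of 0.63 ± 0.14, 0.56 ± 0.12, 0.47 ± 0.12, and 0.69 ± 0.14 (adjusted p = 0.00284, 0.0024, 0.00584, and 0.00121). Rps4l and Rpl3l were low, with means of 12.1 and 0.97 in the CsA table, where Rpl3l had 0 reads in 8 of 18 libraries. Their changes in WT at 24 h are not given here. Rpl22l1 had 36.0, 38.7, and 32.2 untreated and 58.7, 53.4, and 53.6 at 24 h, without overlap. The member with the steadiest group means in the genotype table was Rpl3 (SD of group means 0.09 on the log2 scale), and the least steady were Rpl6l there (2.28) and Rps12l1 in the CsA table (1.35).

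**Figure D5:**
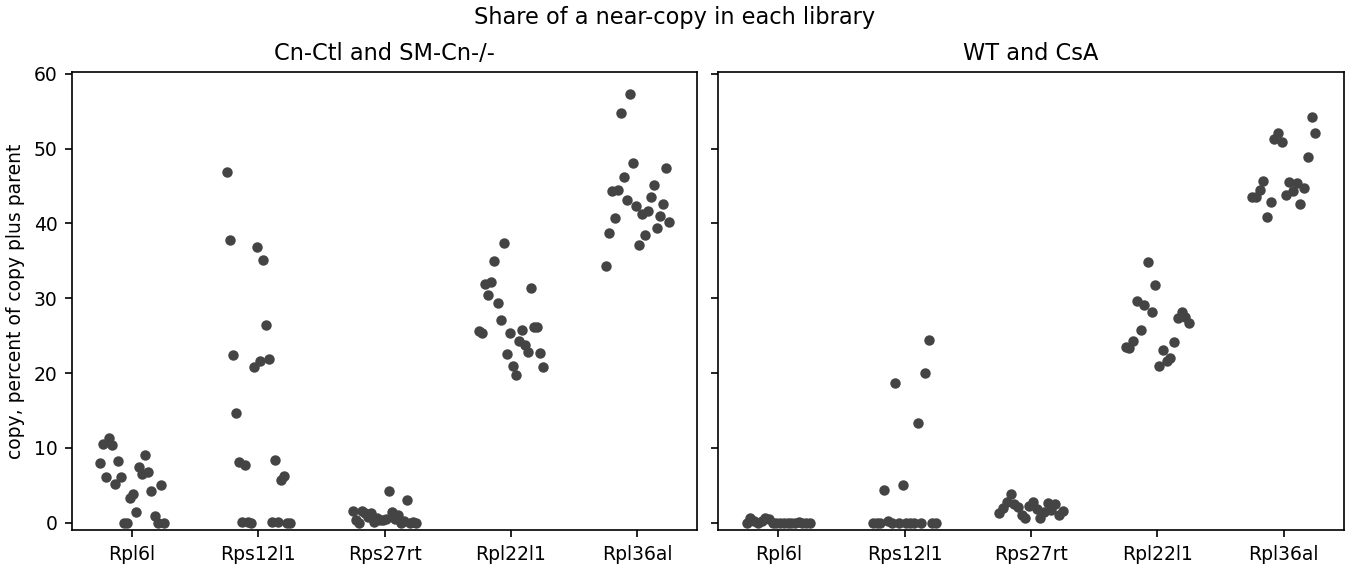
Share of 5 near-copies as a percent of copy plus parent (y axis) in each library (points), in the genotype table (left) and the CsA table (right). Rps12l1 runs from 0.01% to 46.9% in the genotype table, while Rpl36al stays between 34.3% and 57.3% there.

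Other genes of ribosome production were counted from fixed lists. In WT at 24 h, where 18.1% of all rows rose, 70 of 97 measured ribosome biogenesis factors rose and 2 fell (median log2 change 0.51), led by Nhp2, a core protein of H/ACA particles (1.40 ± 0.17, adjusted p = 1.93e-05). Of 35 translation initiation factors 19 rose and 4 fell, of 30 genes of RNA polymerase I and III 11 rose and 5 fell, and of 11 elongation factors and other TOP mRNAs 5 rose and 0 fell, with Eef1g at 0.69 ± 0.10 (adjusted p = 7.4e-05). Of 78 mitochondrial ribosomal proteins 11 rose and 0 fell. The constituents that the naming rule leaves out had 1 of 3 higher, Rack1 (0.48 ± 0.10, adjusted p = 0.0012). Myc was the gene with the largest change among the regulators listed (3.39 ± 0.33, adjusted p = 2.44e-06). In CsA at 24 h, where 5.2% of all rows rose, 11 biogenesis factors rose and 1 fell, and 8 initiation factors rose and 1 fell. Between CsA and WT at 24 h, where 0 members differed in limma and 3.54% of all rows were lower, 36 of 97 biogenesis factors were lower with CsA and 0 higher (median -0.38), led by Rrp12 (-0.94 ± 0.18, adjusted p = 0.00982), and 6 of 35 initiation factors were lower. In Cn-Ctl at 24 h, where 3.22% of all rows rose, 7 biogenesis factors rose and 0 fell, among them Bop1 (1.76 ± 0.38, adjusted p = 0.00778), and in SM-Cn-/-, where 0.638% of all rows did, 1 rose and 0 fell, while Eef2, the translocation factor, rose there (1.14 ± 0.18, adjusted p = 0.00375).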

How the data were processed

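RNA-seq was done on pools of 3 mouse aortas, 22 libraries in the genotype table and 18 in the CsA table (Illumina GAIIx, oligo dT, RIN of at least 7). The submitters' processing notes name Bowtie 0.12.7, RSEM 1.16, and GRCm38. The deposited values are a signal per gene, which, as the deposited values themselves show, is the reads plus 0.5 divided by a scaled library size. Whole reads came back from 100% of values (tolerance 1e-06).

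Protein-coding rows and members with a value of at least 1 in at least 2 libraries were fitted, 14428 rows in the genotype table and 13742 in the CsA table. The test was limma 3.58.1 (trend) on log2(value + 0.5), with all groups of a table in 1 fit, in R 4.3.3. Fold changes of low genes are understated on this scale. P-values were adjusted by Benjamini-Hochberg over all rows, and an adjusted p under 0.05 was called, in 21 comparisons. edgeR 4.0.16 and DESeq2 1.42.0 on the recovered reads, other scalings, filters, pseudocounts, a replicate block, a GC correction, and leaving out each library were alternatives. The fits were tested on simulated data. A value of 0 reads was bounded with 3 reads per library, which covers counting error only. Summaries used Python 3.11.15, pandas 2.3.3, and numpy 2.4.6.

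The members and lists were chosen with earlier results of these data known. Named genes were the near-copy pairs, the stalk, Rpsa, Rps6, Rpl5, Rpl11, Rps27a, and Rack1, the 5 highest and lowest per kb, up to 5 members per comparison with the largest change among those called without overlap, the most and least variable, and the gene with the largest change in each other list. Pseudogene rows ending in -ps (40 and 36) and 9 kinases were left out. Protein sequences were not used here. Some members that the rule for named genes takes are not reported here by name.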

Additional observations from a re-analysis of the deposited data

Results flagged for a closer look

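In 8 cases every library of one arm moved one way from its own untreated mean and every library of the other arm the opposite way. These came from 162 examined cases of a named member at a time, and by the same rule 6.9%, 4.38%, and 11.2% of all rows fitted moved in opposite ways at 2, 6, and 24 h in the genotype table and 6.11% and 9.04% at 2 and 24 h in the CsA table. At 2 h Rps27a, made as a fusion with ubiquitin, had a mean log2 change of 0.21 in Cn-Ctl and -0.05 in SM-Cn-/-, a difference of 0.26 (adjusted p = 0.820 for the difference, limma). At 6 h Rps6, the target of S6 kinases, had -0.22 and 0.15, a difference of -0.37, and Rpl7l1 had 0.31 and -0.37, a difference of 0.68. These 2 differences at 6 h were not tested.

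At 24 h the difference of Cn-Ctl minus SM-Cn-/- was -0.22 for Rps4x (adjusted p = 0.787, limma), -0.39 for Rpl7 (adjusted p = 0.567), and -1.18 for Rpl5 (adjusted p = 0.366). Rpl5 had a mean change of -0.76 in Cn-Ctl and 0.42 in SM-Cn-/-. At 24 h the difference of WT minus CsA was 0.37 for Rps9 (adjusted p = 0.119, limma) and -0.38 for Rpl5 (adjusted p = 0.246). The tested differences did not pass the threshold.

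Rows of ribosomal protein pseudogenes, which no comparison used, took 0.103% of the table in WT at 24 h (0.0969% to 0.108%), above the 0.0558% to 0.0854% of untreated WT. Reads of these rows can be shared with the members.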

How the results depend on the processing

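Of 1321 alternative values, 1083 kept their direction and call or stayed within the spread, 147 moved, 91 were single named genes that lost their call, and 0 called genes changed sign. Among 500 alternative values of medians and summed shares, which carry no test of their own, 34 had the opposite sign to the reported value. The causes were not tested. Depth limits the near-copies most, with 0 reads in several libraries. The GC correction and the 24 h interaction contrasts were chosen after seeing the data.

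Counts of members called are given here for settings that moved them by over 1.5 times. With DESeq2 they were 3 in Cn-Ctl at 6 h, 6 in SM-Cn-/- at 6 h, 12 in SM-Cn-/- at 24 h, 9 between genotypes at 2 h, 1 between genotypes at 24 h and for the difference of their 24 h responses, 1 in WT at 2 h, 4 in CsA at 2 h, 11 in CsA at 24 h, 1 between untreated CsA and WT, 8 between them at 24 h, and 3 for the difference of their 24 h responses. With edgeR they were 0 in Cn-Ctl at 6 h and between genotypes at 2 h. With the GC correction they were 1 in Cn-Ctl at 2 h, 0 in Cn-Ctl at 6 h, 4 in SM-Cn-/- at 6 h, 7 between genotypes at 2 h, 1 between genotypes at 24 h, 1 in CsA at 2 h, 6 in CsA at 24 h, and 1 between CsA and WT at 24 h. With all rows of the table they were 1 in SM-Cn-/- at 6 h, 0 between genotypes at 2 h, and 1 in CsA at 2 h. With a filter of 5 in 2 libraries they were 4 in SM-Cn-/- at 6 h, 1 in CsA at 2 h, and 5 in CsA at 24 h. With median-ratio scaling they were 1 in SM-Cn-/- at 6 h, 0 between genotypes at 2 h, and 6 in CsA at 24 h. With only the groups compared they were 0 in Cn-Ctl at 6 h, 5 in SM-Cn-/- at 6 h, 18 in SM-Cn-/- at 24 h, 1 between genotypes at 2 h, 1 in CsA at 2 h, 0 in CsA at 24 h, and 2 between untreated CsA and WT. With a pseudocount of 0.1 they were 1 in SM-Cn-/- at 6 h and 0 between genotypes at 2 h.

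With quantile normalization the counts were 4 in Cn-Ctl at 6 h, 0 between genotypes at 2 h and 2 at 24 h, 1 in WT at 2 h, 17 in CsA at 2 h, 5 in CsA at 24 h, 7 between untreated CsA and WT, and 4 for the difference of their 24 h responses. The median log2 changes were then -0.13 in Cn-Ctl at 2 h, 0.24 between genotypes at 6 h, -0.18 in WT at 2 h, -0.21 in CsA at 2 h, 0.12 in CsA at 24 h, and 0.072 at 2 h and -0.056 at 24 h between CsA and WT. With totals taken without members the counts were 1 in SM-Cn-/- at 6 h and 3 at 24 h, 0 between genotypes at 2 h, 4 in WT at 2 h and 25 at 24 h, 13 in CsA at 2 h and 1 at 24 h, 1 between untreated CsA and WT, and 4 between them at 24 h. The medians were then -0.052 in Cn-Ctl at 2 h and 0.14 at 24 h, 0.23 between genotypes at 6 h, -0.23 in WT at 2 h, -0.20 in CsA at 2 h and 0.047 at 24 h, and -0.19 between CsA and WT at 24 h. The log2 change of the summed share with median-ratio scaling was 0.19 in Cn-Ctl, 0.082 in WT, and 0.012 in CsA at 2 h, and 0.19 in CsA at 24 h. Summed as deposited it was 0.20 in Cn-Ctl, 0.077 in WT, and -0.0022 in CsA at 2 h, and 0.16 in CsA at 24 h. Without the 10 most abundant other genes it was 0.080 in CsA at 24 h. The share of members starting on a tract was 58.5% within 10 bases.

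With a replicate block the counts were 5 in SM-Cn-/- at 6 h, 4 between genotypes at 2 h, 4 in CsA at 2 h, 6 in CsA at 24 h, 2 between untreated CsA and WT, 1 between them at 24 h, and 1 for the difference of their 24 h responses, and no other count moved by over 1.5 times. The main fit did not use the numbers to pair libraries. Over 71 same-number pairs in the genotype table the deviations correlated at -0.37 to 0.34, with 27 over 0.1. Over 45 in the CsA table they did so at -0.39 to 0.38, with 11 over 0.1. Pairs with different numbers ran from -0.41 to 0.34 and from -0.33 to 0.40. These ranges do not decide whether pools with the same number belong together.

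Leaving out 1 library at a time gave counts of members called of 0 to 0 (Cn-Ctl, 2 h), 0 to 1 (Cn-Ctl, 6 h), 1 to 5 (Cn-Ctl, 24 h), 0 to 0 (SM-Cn-/-, 2 h), 0 to 3 (SM-Cn-/-, 6 h), 0 to 5 (SM-Cn-/-, 24 h), 0 to 0 (untreated, SM-Cn-/- against Cn-Ctl), 0 to 27 (2 h, SM-Cn-/- against Cn-Ctl), 0 to 0 (6 h, SM-Cn-/- against Cn-Ctl), 0 to 2 (24 h, SM-Cn-/- against Cn-Ctl), 0 to 1 (2 h response, SM-Cn-/- minus Cn-Ctl), 0 to 0 (24 h response, SM-Cn-/- minus Cn-Ctl), 0 to 0 (WT, 2 h), 21 to 42 (WT, 24 h), 0 to 5 (CsA, 2 h), 0 to 12 (CsA, 24 h), 0 to 4 (untreated, CsA against WT), 0 to 0 (2 h, CsA against WT), 0 to 5 (24 h, CsA against WT), 0 to 0 (2 h response, CsA minus WT), 0 to 5 (24 h response, CsA minus WT). The medians ran over 0.12 to 0.30 (Cn-Ctl, 2 h), -0.14 to 0.01 (Cn-Ctl, 6 h), 0.14 to 0.27 (Cn-Ctl, 24 h), -0.30 to -0.01 (SM-Cn-/-, 2 h), 0.06 to 0.20 (SM-Cn-/-, 6 h), 0.24 to 0.41 (SM-Cn-/-, 24 h), -0.18 to -0.0055 (untreated, SM-Cn-/- against Cn-Ctl), -0.61 to -0.34 (2 h, SM-Cn-/- against Cn-Ctl), 0.03 to 0.20 (6 h, SM-Cn-/- against Cn-Ctl), -0.03 to 0.08 (24 h, SM-Cn-/- against Cn-Ctl), -0.47 to -0.22 (2 h response, SM-Cn-/- minus Cn-Ctl), 0.02 to 0.22 (24 h response, SM-Cn-/- minus Cn-Ctl), 0.01 to 0.11 (WT, 2 h), 0.24 to 0.40 (WT, 24 h), -0.12 to 0.071 (CsA, 2 h), 0.024 to 0.24 (CsA, 24 h), -0.08 to 0.15 (untreated, CsA against WT), -0.13 to -0.01 (2 h, CsA against WT), -0.18 to -0.059 (24 h, CsA against WT), -0.18 to 0.009 (2 h response, CsA minus WT), -0.30 to -0.07 (24 h response, CsA minus WT). The log2 changes of the summed share ran over -0.14 to 0.0088 (Cn-Ctl 2 h), -0.28 to -0.11 (Cn-Ctl 6 h), 0.04 to 0.18 (Cn-Ctl 24 h), -0.29 to -0.02 (SM-Cn-/- 2 h), 0.040 to 0.17 (SM-Cn-/- 6 h), 0.22 to 0.36 (SM-Cn-/- 24 h), -0.26 to -0.15 (WT 2 h), 0.13 to 0.31 (WT 24 h), -0.33 to -0.14 (CsA 2 h), -0.077 to 0.11 (CsA 24 h).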
